A study of Homo sapiens with 3 samples.

Results

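Genes of the unfolded protein response and the integrated stress response were examined in MDA-MB-231, a long-established line of human breast cancer cells that is commonly grouped with oestrogen receptor alpha-negative lines. The 10 members were VLDLR, DNAJB9, CHAC1, ATF4, DDIT3, HSPA5, XBP1, TRIB3, SESN2 and ASNS, taken by symbol. They were measured by 17 of the 41097 probe sets that the array annotation pairs with exactly 1 symbol, and make up 10 of 19775 genes. The arrays were 1 of cells exposed to 1 µM ERα17p, a peptide with sequence from that receptor, 1 of cells given 1 µM of the hormone estradiol, and 1 of cells given 0.1% ethanol as vehicle. All cells had first spent 4 h in medium whose 10% serum had been stripped of steroids with charcoal, and the exposure then lasted 3 h. The sources used here do not name the solvent of the peptide or of estradiol. With 1 array per group there is no replicate spread and no test, so every value below describes these 3 arrays only.

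The endoplasmic reticulum folds secreted and membrane proteins. When unfolded proteins build up there, the sensors IRE1, PERK and ATF6 start the unfolded protein response, which raises chaperones and degradation factors. PERK, with related kinases that sense amino acid shortage, haem shortage or viral RNA, also phosphorylates the initiation factor eIF2; this slows most translation and favours that of ATF4, whose target genes form the integrated stress response. Cancer cells are known to draw on both responses when nutrients or oxygen are scarce.

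The members fall into 4 groups by role. ATF4, DDIT3 (also called CHOP) and XBP1 are the transcription factors. HSPA5 (BiP) and DNAJB9 (ERdj4) are a chaperone of the reticulum and its J-domain partner. CHAC1, TRIB3, SESN2 and ASNS are targets of ATF4: a glutathione-degrading enzyme, a pseudokinase that feeds back on the pathway, a sestrin that restrains the growth regulator mTORC1, and asparagine synthetase. VLDLR, a receptor for lipoproteins and reelin, is known from mouse liver cells to be induced by the PERK branch.

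Promoter sequences from RefSeq (GRCh38.p14), each reaching from 250 bases before to 50 bases after a gene's first listed start, were matched for all 10 members. Those of HSPA5 and XBP1 are shown because each holds the ER stress response element, CCAAT and CCACG with 9 bases between them, through which ATF6 acts together with NF-Y; it is printed in capitals. HSPA5 lies at chr9:125241294-125241593 on the minus strand and XBP1 at chr22:28800520-28800819 on the minus strand.
HSPA5: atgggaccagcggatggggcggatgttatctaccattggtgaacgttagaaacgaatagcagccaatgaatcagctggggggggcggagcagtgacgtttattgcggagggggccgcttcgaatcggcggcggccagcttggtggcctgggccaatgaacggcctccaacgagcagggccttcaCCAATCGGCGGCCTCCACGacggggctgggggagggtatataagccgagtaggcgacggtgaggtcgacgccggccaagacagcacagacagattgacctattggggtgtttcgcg
XBP1: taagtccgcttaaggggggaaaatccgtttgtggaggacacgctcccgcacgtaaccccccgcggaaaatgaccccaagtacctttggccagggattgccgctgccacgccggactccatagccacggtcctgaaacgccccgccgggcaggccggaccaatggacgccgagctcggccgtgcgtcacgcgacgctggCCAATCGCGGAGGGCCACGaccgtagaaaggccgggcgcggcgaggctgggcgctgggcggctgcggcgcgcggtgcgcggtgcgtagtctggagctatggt

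The promoters of CHAC1 and ASNS are shown because each holds TGATGNAA, the core of the C/EBP-ATF response element to which ATF4 binds, again in capitals. CHAC1 lies at chr15:40953221-40953520 on the plus strand and carries the element on the opposite strand. ASNS lies at chr7:97872359-97872658 on the minus strand.
CHAC1: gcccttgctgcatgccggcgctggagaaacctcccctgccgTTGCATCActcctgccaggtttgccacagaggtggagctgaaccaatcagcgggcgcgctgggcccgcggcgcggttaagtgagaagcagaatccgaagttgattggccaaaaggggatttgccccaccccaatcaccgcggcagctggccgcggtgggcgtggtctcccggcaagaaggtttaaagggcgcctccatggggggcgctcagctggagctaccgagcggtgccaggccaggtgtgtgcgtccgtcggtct
ASNS: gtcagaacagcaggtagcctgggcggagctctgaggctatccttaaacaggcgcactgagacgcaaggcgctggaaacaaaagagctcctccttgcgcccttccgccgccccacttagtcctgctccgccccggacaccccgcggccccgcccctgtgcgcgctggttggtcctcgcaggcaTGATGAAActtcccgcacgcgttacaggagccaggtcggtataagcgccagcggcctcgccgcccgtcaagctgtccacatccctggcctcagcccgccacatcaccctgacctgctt

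The promoters of DNAJB9 and VLDLR are shown because these members differed most from vehicle, and capitals mark CCACG, the end of the ER stress response element that ATF6 contacts, on either strand. DNAJB9 lies at chr7:108569624-108569923 and VLDLR at chr9:2621537-2621836, both on the plus strand.
DNAJB9: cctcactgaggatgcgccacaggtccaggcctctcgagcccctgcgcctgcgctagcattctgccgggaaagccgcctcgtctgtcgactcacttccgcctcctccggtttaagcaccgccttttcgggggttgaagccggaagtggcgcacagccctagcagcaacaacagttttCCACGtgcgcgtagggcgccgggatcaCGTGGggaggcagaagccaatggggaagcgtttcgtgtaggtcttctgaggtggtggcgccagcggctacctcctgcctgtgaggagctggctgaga
VLDLR: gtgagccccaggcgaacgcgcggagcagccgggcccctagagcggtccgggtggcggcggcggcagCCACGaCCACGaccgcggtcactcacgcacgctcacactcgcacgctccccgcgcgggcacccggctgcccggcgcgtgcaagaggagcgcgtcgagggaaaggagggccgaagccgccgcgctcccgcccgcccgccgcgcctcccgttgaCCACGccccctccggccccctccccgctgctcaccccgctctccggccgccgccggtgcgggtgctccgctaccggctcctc

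Across 27305 promoters of the same length, searched on both strands, the ER stress response element was found in 22 (0.0806%) and TGATGNAA in 1003 (3.67%). CCACG, which that element contains, was found in 37.9% of all promoters and in 7 of the 10 members. The element starts 66 bases upstream of the HSPA5 start and 52 bases upstream of the XBP1 start; TGATGNAA starts 68 bases upstream in ASNS and 209 in CHAC1. ATTGG and CCACG with 1 base between them, a second form of the ER stress element, and TGACGTGG, the unfolded protein response element, were found in 0 members and in 0.0549% and 0.795% of all promoters. These are matches of letters, and no binding was measured.

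Each probe set's log2 values had been centred on a reference level of its own, described in no source, so a gene's own expression level is not known. A value of 0 is that reference, and only differences between arrays carry meaning. A gene's difference is the median over its probe sets, and it was called higher or lower at 1.5-fold (0.58 on the log2 scale), a limit of size and not a test. For the same reason the cell line could not be checked by the presence or absence of its markers. Of 8 markers of mesenchymal-like breast lines, 3 were at least 1.5-fold higher and 0 lower on the ERα17p array than on the vehicle array, against 2 and 0 on the estradiol array. Of 8 luminal markers 1 was higher and 1 lower under each treatment, of 4 blood cell markers 0 were higher under ERα17p and 1 under estradiol, and of 6 fibroblast and endothelium markers likewise 0 and 1. Of all genes, 9.56% were higher and 8.82% lower under ERα17p, and 10.6% and 8.42% under estradiol, and 1 of 8 is near those shares. The SD over all probe sets was 0.241 for ERα17p, 0.260 for estradiol and 0.494 for vehicle. Bacterial labelling spikes, which enter the RNA ahead of the labelling step, exceeded vehicle by 2.04 in the ERα17p hybridisation and by 2.03 in that of estradiol (medians of 27 probe sets), and were 0.00 apart between the treated arrays. Hybridisation spikes, added later, were at -0.93 and -0.74 (18 probe sets). The part of these array differences in the values of the members was not tested. A change in the share of responding cells and a change in RNA per cell cannot be told apart in such samples.

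Across the 17 member probe sets the values ran from -0.24 to 0.52 on the ERα17p array, from -0.13 to 0.84 on the estradiol array and from -2.78 to 1.62 on the vehicle array. In 14 of the 17 the vehicle array lay farther from the reference than both treated arrays. The same count over all probe sets was not made. Of all probe sets, 15.1% lay at least 1.5-fold from the reference on the vehicle array. On the ERα17p and estradiol arrays 2.84% and 3.79% did, so a wider vehicle array is not particular to the members. Both treated arrays lay above vehicle in 9 probe sets and below it in 7; in CHAC1 they lay on opposite sides.

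**Figure D1:**
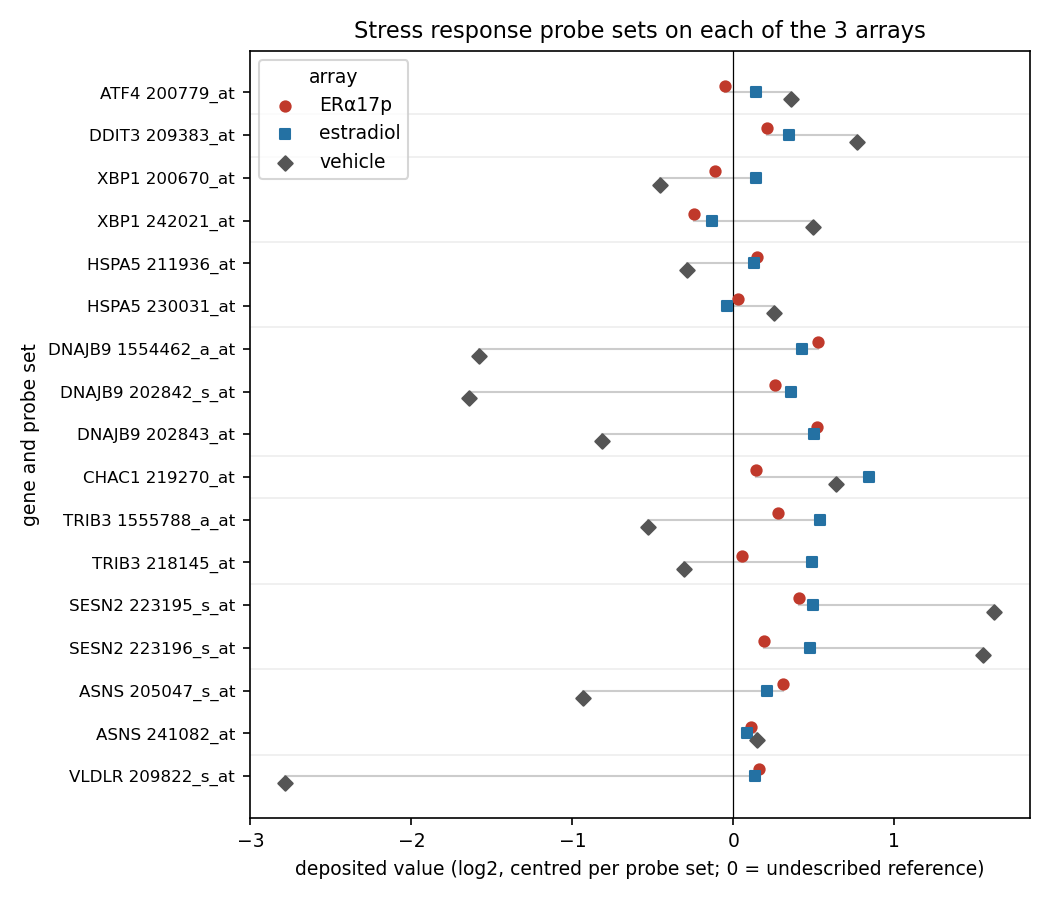
Deposited log2 value (x axis, centred so that 0 is an undescribed reference) of each of the 17 member probe sets (rows) on the ERα17p array (circles), the estradiol array (squares) and the vehicle array (diamonds), with a grey line spanning the 3 values. The treated arrays stay between -0.24 and 0.84, while vehicle runs from -2.78 for VLDLR to 1.62 for SESN2.

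VLDLR stood farthest from vehicle. Its value was 0.16 under ERα17p, 0.14 under estradiol and -2.78 under vehicle, so the treated arrays lay together and the vehicle array alone was low. The difference from vehicle was 2.94 for ERα17p (7.68-fold, rank 17 from the highest of 19775 genes) and 2.92 for estradiol (7.57-fold, rank 19); both use the same vehicle array. These sizes depended on the scaling: quantile normalisation gave 1.74 for ERα17p and 1.71 for estradiol, and giving the arrays an equal spread gave 2.09 and 2.04. The gene rests on 1 probe set, 209822_s_at, whose suffix marks probes that can match several transcripts. The genes whose pair of differences lay nearest to that of VLDLR were TMEM133 (2.81 for ERα17p and 2.78 for estradiol), TNFSF10, which encodes the death ligand TRAIL (3.06 and 2.76), and the mitochondrial carrier gene SLC25A43 (2.73 and 2.90). Nearness was the Euclidean distance over these 2 differences (0.193, 0.196 and 0.215), which share the vehicle array.

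Among other receptors of the lipoprotein receptor family, 3 of 8 measured were at least 1.5-fold higher under ERα17p (9.56% of all genes) and 1 of 8 under estradiol (10.6% of all genes), with 0 lower under either. The estradiol count was near the share over all genes. Their medians were 0.31 and 0.32, against 0.00 over all genes in both comparisons. SORL1, a sorting receptor of endosomes, was at 1.60 under ERα17p and 1.76 under estradiol. The Wnt co-receptor LRP6 was at 0.65 and 0.33, the reelin receptor LRP8 at 0.64 and 0.31, the endocytic receptor LRP2 at 0.34 and 0.38, and LRP1B at 0.28 and 0.48. LRP1 was at 0.25 under ERα17p and 0.05 under estradiol, LRP4 at 0.22 and 0.01, and LRP5 at 0.11 and 0.02, so these 3 lay close to vehicle under estradiol.

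DNAJB9 was the next highest member, and all 3 of its probe sets agreed in direction. The probe set 202843_at, the only one without a suffix for several transcripts, had 0.52 under ERα17p, 0.50 under estradiol and -0.82 under vehicle. The other probe sets had 0.52 and 0.26 under ERα17p, 0.43 and 0.36 under estradiol and -1.58 and -1.65 under vehicle. In each of them the vehicle array alone was low. The median difference from vehicle was 1.90 for ERα17p (3.74-fold, rank 98) and 2.00 for estradiol (4.00-fold, rank 101), and 202843_at alone gave 1.34 and 1.32. Quantile normalisation gave 1.32 for ERα17p and 1.44 for estradiol.

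HSPA5, the main chaperone of the reticulum and a widely used marker of its stress, differed little. Its probe set 211936_at had 0.14 under ERα17p, 0.13 under estradiol and -0.29 under vehicle. The second, 230031_at, for which the annotation gives no accession, went the other way, with 0.03, -0.04 and 0.25. The gene's median difference from vehicle was 0.10 for ERα17p and 0.06 for estradiol, within 1.5-fold, and 211936_at alone gave 0.43 and 0.41. Its partner DNAJB9 and HSPA5 therefore had unlike differences on the same arrays. The RefSeq gene table lists 1 pseudogene of HSPA5, 1 of XBP1, 4 of ATF4 and 5 of ASNS, and probes could read such copies.

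Among the transcription factors no gene median reached 1.5-fold against vehicle, although single probe sets of XBP1 did. ATF4 had -0.05 under ERα17p, 0.14 under estradiol and 0.36 under vehicle, so vehicle was the highest. Its difference from vehicle was -0.41 for ERα17p and -0.22 for estradiol. ATF4 is controlled largely through translation, and protein was not measured.

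DDIT3, a factor that promotes cell death under lasting stress, followed the same order. It had 0.21 under ERα17p, 0.35 under estradiol and 0.77 under vehicle. The differences from vehicle were -0.56 for ERα17p, just inside the 1.5-fold limit, and -0.42 for estradiol. Quantile normalisation gave -0.28 for ERα17p and -0.10 for estradiol, and an equal spread of the arrays -0.23 and -0.07. ATF4 and DDIT3 have 1 probe set each.

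XBP1, whose transcript IRE1 splices to yield the active factor, gave 2 opposite readings. Probe set 200670_at had -0.11 under ERα17p, 0.14 under estradiol and -0.46 under vehicle, with the treated arrays above vehicle. Probe set 242021_at, which has no accession in the annotation, had -0.24, -0.13 and 0.49, with the treated arrays below vehicle. The median of the pair was -0.20 for ERα17p against vehicle and -0.02 for estradiol against vehicle, and 200670_at alone gave 0.34 and 0.59, the second just past 1.5-fold. Probe set 242021_at alone gave -0.74 for ERα17p and -0.63 for estradiol, both past 1.5-fold in the other direction. The splicing of XBP1 was not measured here.

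The targets of ATF4 went in different directions. SESN2, which is also a p53 target, was the lowest member: its probe sets had 0.41 and 0.19 under ERα17p, 0.49 and 0.48 under estradiol and 1.62 and 1.55 under vehicle. Here the vehicle array alone was high. The difference from vehicle was -1.29 for ERα17p (rank 186 from the lowest) and -1.10 for estradiol (rank 303 from the lowest). Quantile normalisation gave -0.61 for ERα17p and -0.38 for estradiol, and an equal spread of the arrays -0.65 and -0.45, so that the estradiol difference was then within 1.5-fold. Both probe sets carry the suffix for several transcripts.

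TRIB3 lay above vehicle in both probe sets. Probe set 1555788_a_at had 0.28 under ERα17p, 0.54 under estradiol and -0.53 under vehicle. Probe set 218145_at had 0.05, 0.49 and -0.31. Estradiol was the highest array and vehicle the lowest in both. The gene's difference was 0.59 for ERα17p, which passed the 1.5-fold limit by a narrow margin (1.501-fold), and 0.93 for estradiol (1.91-fold).

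ASNS, which makes asparagine from aspartate and glutamine, had 1 probe set that differed and 1 that hardly did. Probe set 205047_s_at had 0.31 under ERα17p, 0.21 under estradiol and -0.94 under vehicle, and 241082_at had 0.11, 0.09 and 0.15. The first gave 1.25 for ERα17p and 1.14 for estradiol against vehicle, and the second, which has no accession in the annotation, gave -0.04 and -0.06. Their median was 0.60 for ERα17p (1.52-fold) and 0.54 for estradiol (1.46-fold), on either side of the limit, so the call for the gene depends on how the pair is joined.

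CHAC1, which rests on 1 probe set, was the member in which the treated arrays parted. It had 0.14 under ERα17p, 0.84 under estradiol and 0.64 under vehicle. ERα17p was thus at -0.50 against vehicle and estradiol at 0.20 against vehicle, each within 1.5-fold. After quantile normalisation the estradiol difference was 0.69 and that of ERα17p -0.28.

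Counted together, 4 of 10 members were at least 1.5-fold higher under ERα17p than under vehicle (VLDLR, DNAJB9, ASNS and TRIB3), where 9.56% of all genes were. SESN2 was the 1 member lower, where 8.82% of all genes were. The members' median difference was -0.05, beside 0.00 over all genes. Quantile normalisation left 2 higher and 1 lower. For estradiol against vehicle, 3 of 10 were higher (VLDLR, DNAJB9 and TRIB3; 10.6% of all genes) and SESN2 was lower (8.42% of all genes), with a median of 0.13. Quantile normalisation gave 4 higher and 0 lower in that comparison. The members had been put together with earlier results of these arrays known, so these counts are a description and no independent evidence of a direction.

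**Figure D2:**
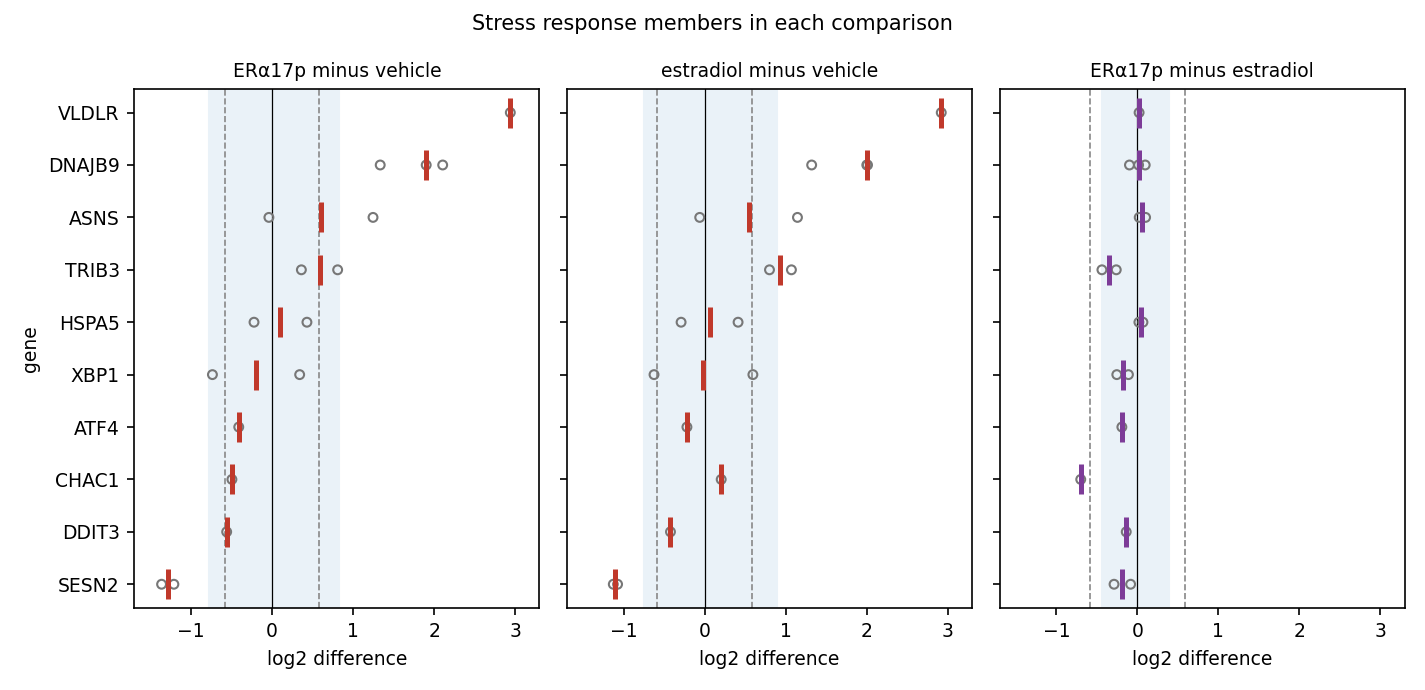
Log2 difference (x axis) of each member (rows) in ERα17p minus vehicle, estradiol minus vehicle and ERα17p minus estradiol; open circles are probe sets, thick marks are gene medians, dashed lines are 1.5-fold and the shaded band spans the 5th to 95th percentile of all genes. VLDLR (2.94 and 2.92) and DNAJB9 (1.90 and 2.00) lie far to the right against vehicle, SESN2 (-1.29 and -1.10) to the left, and CHAC1 (-0.70) is the member outside 1.5-fold between the treated arrays.

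Compared without the vehicle array, the treated arrays were close in most members. In 16 of 17 probe sets ERα17p and estradiol lay within 1.5-fold of each other. So did 19116 of all 19775 genes, and such closeness is therefore not particular to the members. The differences of VLDLR, DNAJB9, HSPA5 and ASNS were 0.02, 0.02, 0.04 and 0.06. CHAC1 was the exception, at -0.70 (1.62-fold lower under ERα17p, rank 207 from the lowest), so 1 of 10 members was lower, where 2.04% of all genes were. None of the 10 was at least 1.5-fold higher, where 1.29% of all genes were. TRIB3 followed at -0.35, with its probe sets at -0.26 and -0.44. The median of the members was -0.16, beside -0.01 over all genes. ATF4 (-0.19), SESN2 (-0.19), XBP1 (-0.18) and DDIT3 (-0.14) were also slightly lower under ERα17p, each by less than the SD of 0.254 over all genes in this comparison.

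Set beside the promoter elements, HSPA5 and XBP1, which hold the ER stress response element, had gene medians within 1.5-fold in all 3 comparisons. Those medians join probe sets of opposite sign; without the probe sets that have no accession, HSPA5 was at 0.43 for ERα17p and 0.41 for estradiol, and XBP1 at 0.34 and 0.59. CHAC1 and ASNS, which hold TGATGNAA, were at -0.50 and 0.60 under ERα17p, on opposite sides of vehicle, and at 0.20 and 0.54 under estradiol, both above it. VLDLR, DNAJB9 and SESN2, with the largest differences from vehicle, hold neither in the 300 bases searched.

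The wider pathway was described through 4 lists that leave the members out: sensors and eIF2 control, the ATF4 programme and amino acid supply, chaperones and oxidative folding of the reticulum, and ER-associated degradation. Of 60 measured genes among 61 listed, 18 were at least 1.5-fold higher and 5 lower under ERα17p, with a median of 0.23. Under estradiol the counts were 15 and 3, and the median 0.24. The shares over all genes were 9.56% and 8.82% for ERα17p and 10.6% and 8.42% for estradiol, and both medians over all genes were 0.00. These lists too were drawn up with earlier results known, and both comparisons share the vehicle array.

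Factors of ER-associated degradation, which send misfolded proteins to the proteasome, included some of the highest values. Of 11 measured, 4 were higher and 1 lower under both ERα17p (median 0.29) and estradiol (median 0.34). Of all genes, 9.56% were higher under ERα17p and 10.6% under estradiol. The 1 lower was near the 8.82% and 8.42% of all genes. Without probe sets that can match several transcripts, 5 genes of this list were left, with 1 higher and 0 lower under each treatment. Of all genes left, 9.34% were then higher under ERα17p and 10.3% under estradiol. EDEM3 and EDEM1, lectin-like factors that select glycoproteins, were at 1.68 and 1.59 under ERα17p and at 1.13 and 1.57 under estradiol. The adaptor SEL1L was at 1.26 under ERα17p and 1.03 under estradiol. For EDEM1 the values were 0.11 under ERα17p, 0.09 under estradiol and -1.48 under vehicle, with vehicle alone low as in DNAJB9.

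The ATF4 programme was split. Of 22 genes, 7 were higher and 2 lower under ERα17p and 6 higher and 0 lower under estradiol, yet the medians were -0.07 and 0.06. Over all genes, 9.56% were higher and 8.82% lower under ERα17p, and 10.6% and 8.42% under estradiol. The 2 of 22 lower under ERα17p were thus near the share over all genes. Without probe sets that can match several transcripts, 14 genes of this list were left. Of these, 2 were higher and 2 lower under ERα17p, and 2 higher and 0 lower under estradiol. Of all genes left, 9.34% were then higher under ERα17p and 10.3% under estradiol. NUPR1, a stress-induced chromatin protein, was at 2.55 under ERα17p and 2.76 under estradiol. CTH, which makes cysteine, was at 1.74 and 2.17, and PSAT1, of serine synthesis, at 1.40 and 1.61. Each of these had its low value on the vehicle array, NUPR1 with 0.25 under ERα17p, 0.46 under estradiol and -2.30 under vehicle.

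Among 11 sensors and eIF2 regulators, 2 were higher and 1 lower under each treatment, with medians of 0.34 for ERα17p and 0.14 for estradiol. Of all genes, 9.56% were higher under ERα17p and 10.6% under estradiol. The 1 lower was near the 8.82% (ERα17p) and 8.42% (estradiol) of all genes. EIF2AK3, which encodes PERK, was at 0.87 under ERα17p and 0.76 under estradiol. The subunits that direct phosphatase to eIF2 parted: PPP1R15A, the stress-induced one, was at -1.29 and -1.15, and PPP1R15B, the constitutive one, at 1.07 and 0.84. PPP1R15A, like SESN2, was highest on the vehicle array, with -0.11 under ERα17p, 0.03 under estradiol and 1.18 under vehicle.

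Chaperones and oxidative folding factors numbered 16, of which 5 were higher and 1 lower under ERα17p (median 0.37) and 3 higher and 1 lower under estradiol (median 0.29). Of all genes, 9.56% were higher under ERα17p and 10.6% under estradiol. The 1 lower was near the 8.82% (ERα17p) and 8.42% (estradiol) of all genes. DNAJC10, a reductase with a J-domain, was at 0.93 and 0.99, and the oxidase ERO1A at 0.81 and 0.82. DNAJC3, an inhibitor of PERK, was at 0.74 under ERα17p and 0.30 under estradiol. HSP90B1, the reticulum's HSP90, was at -0.52 under ERα17p, within 1.5-fold, and at -1.21 under estradiol, the 1 lower there. It was the 1 gene of the 60 past 1.5-fold between the treatments, 0.70 higher under ERα17p than under estradiol. Its values were 0.23 under ERα17p, -0.47 under estradiol and 0.74 under vehicle. Of all genes, 1.29% were higher and 2.04% lower between the treatments, so 1 of 60 was near those shares. Without probe sets that can match several transcripts, 0 genes of this list were higher between the treatments and 0 lower under estradiol.

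Paralogues of the members, counted together with more distant relatives such as CREB3, were mostly within 1.5-fold of vehicle. Of 8 measured, 1 was higher and 0 lower under each treatment, near the 9.56% (ERα17p) and 10.6% (estradiol) of all genes that were higher, with medians of 0.17 for ERα17p and -0.07 for estradiol. That 1 was TRIB2, a pseudokinase related to TRIB3, at 1.53 under ERα17p and 0.97 under estradiol. SESN1, the p53-regulated relative of SESN2, was at 0.35 and 0.28, where SESN2 was at -1.29 and -1.10. CREB3, a membrane-bound factor of the secretory pathway, was at -0.48 and -0.35.

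**Figure D3:**
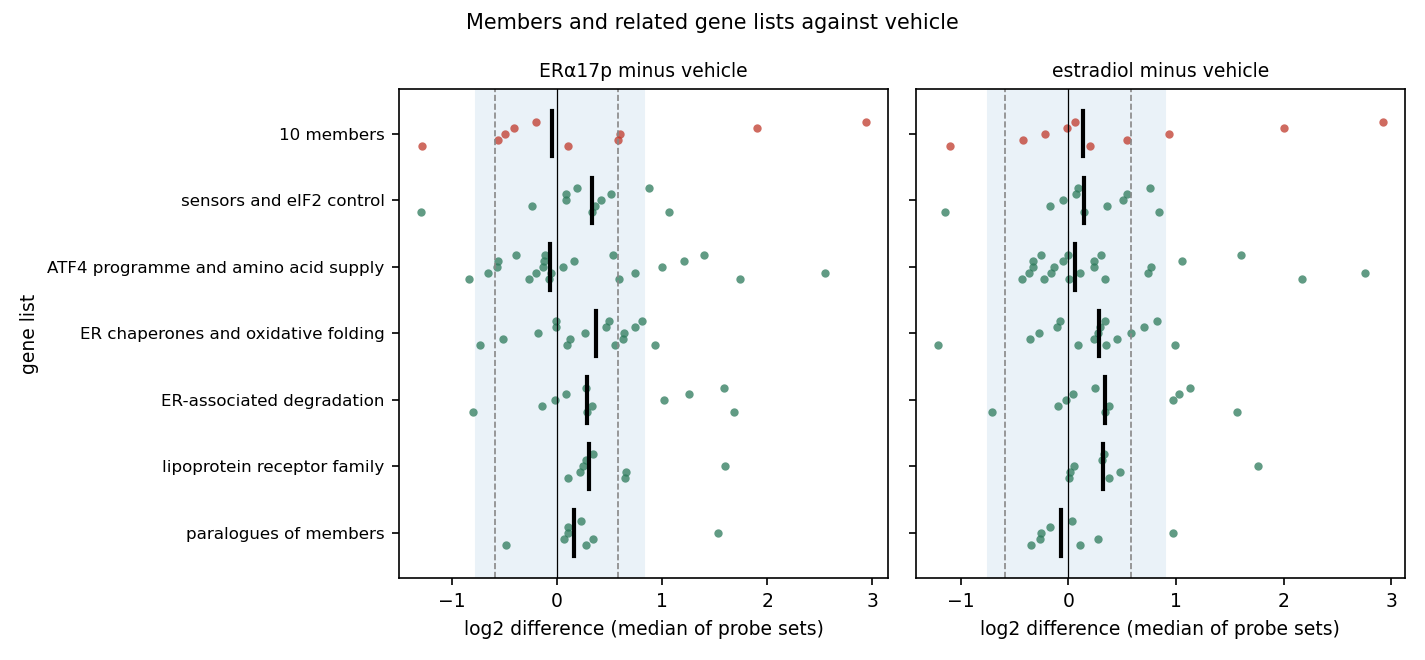
Log2 difference from vehicle (x axis; ERα17p left panel, estradiol right panel) of the 10 members and of the measured genes of 6 related lists (rows); each dot is a gene, black bars are list medians, dashed lines are 1.5-fold and the shaded band spans the 5th to 95th percentile of all genes. The members' medians (-0.05 and 0.13) lie near 0 with VLDLR and DNAJB9 far right, and the ATF4 programme has a long right tail with medians of -0.07 and 0.06.

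The member differences depended on the baseline. When the undescribed reference level took the place of vehicle, VLDLR was at 0.16 for ERα17p and 0.14 for estradiol, DNAJB9 at 0.52 and 0.43, and SESN2 at 0.30 and 0.48, on the other side of 0. Of all genes, 0.496% were then at least 1.5-fold higher and 0.632% lower for ERα17p, and 1.28% and 0.516% for estradiol. CHAC1, at 0.84 for estradiol, was the 1 member past 1.5-fold. The arrays that made up the reference are not known.

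**Figure D4:**
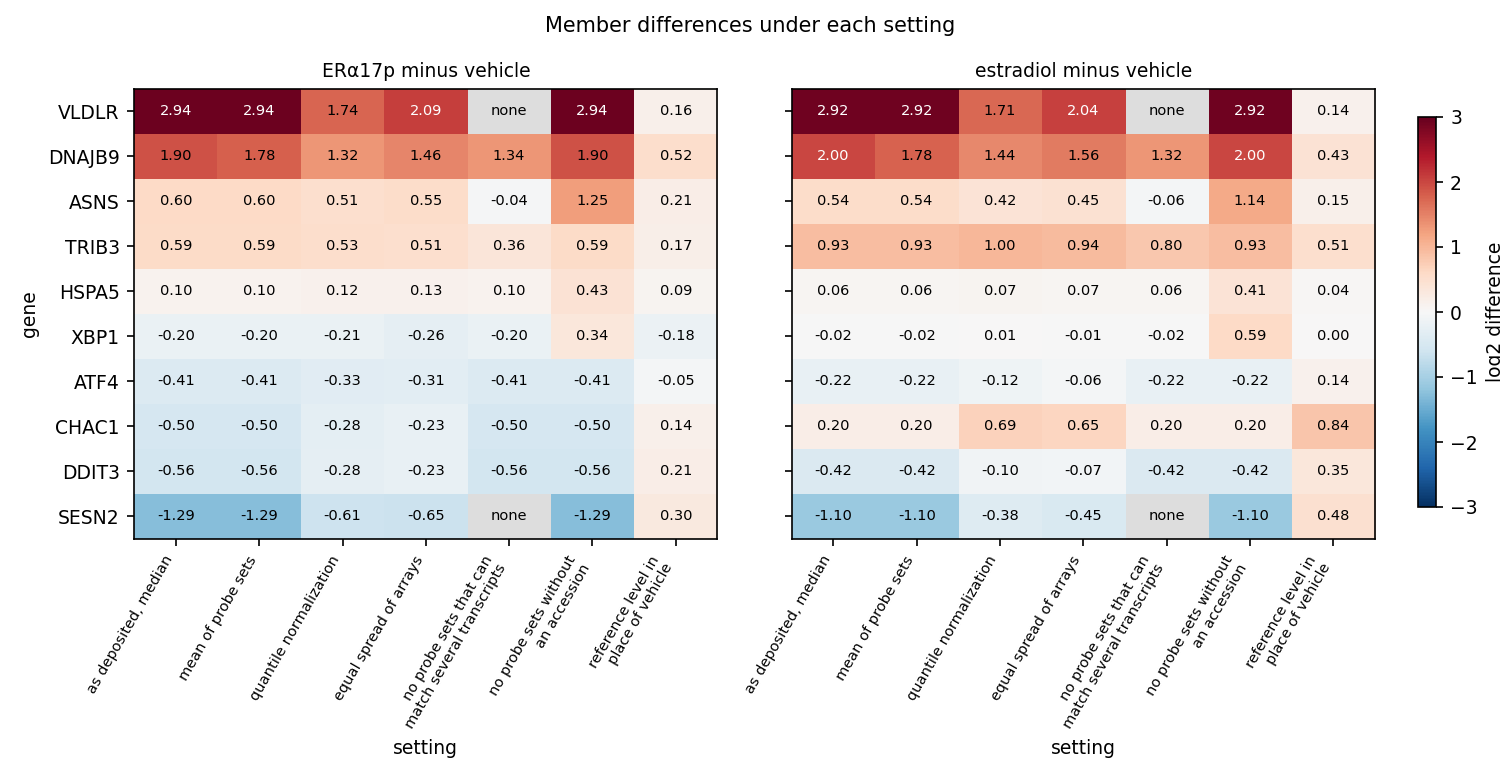
Log2 difference of each member (rows) from vehicle for ERα17p (left) and estradiol (right) under 7 settings (columns), with the value printed in each cell, red for higher and blue for lower; grey cells have no probe set left. VLDLR and DNAJB9 stay positive in each cell with a value, while SESN2 is at -1.29 and -1.10 against vehicle and at 0.30 and 0.48 against the reference level.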

How the data were processed

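RNA of MDA-MB-231 cells was hybridised to Affymetrix arrays with 54675 probe sets, 1 array per group. Per the submitters' processing notes the authors used RMA, whose version is not stated. Its scale is log2, so the deposited values were read as log2; a centring per probe set is seen in the values and is described in no source. Of the probe sets, 41097 had 1 symbol, 1801 several (not used) and 11777 none in the platform annotation. Of the 19775 genes, 19735 were matched by Entrez identifier to RefSeq's table for GRCh38.p14, which left every symbol as it was.

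A gene's difference between 2 arrays was the median over its probe sets, called at 1.5-fold (0.58 on the log2 scale), with no test and no p-value. The number of arrays limits the precision. All 10 members are named, and of each other list the 3 genes with the largest absolute difference in each comparison with vehicle. Other list genes are only counted, except in the lipoprotein receptor list, where all 8 measured genes are named. The members and lists were chosen with earlier results of these data known. Alternatives were quantile normalisation, equal array spread, the mean of probe sets, leaving out probe sets whose suffix (_s, _x or _a) marks several transcripts, a 2-fold call, the deposited reference as baseline, leaving out the farthest member and, added after seeing the data, leaving out probe sets with no accession. Scripts ran in Python 3.11.15 with pandas 2.3.3 and were tested on simulated data. The simulated noise had the same spread on all 3 arrays, so the wider spread of the vehicle array was not covered.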

Additional observations from a re-analysis of the deposited data

How the results depend on the processing

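With 1 array per group no replicate could be left out. No paired analysis was possible because each group has 1 array. Values below are for ERα17p minus vehicle unless another comparison is named. A value was held to have moved past 0.254, the SD over all genes of the difference between the treated arrays, and a count past 1.5 times. Main counts were 4 members higher and 1 lower (estradiol minus vehicle, 3 and 1; ERα17p minus estradiol, 0 and 1) and 18 and 5 genes of the 4 pathway lists (15 and 3; 1 and 0). Quantile normalisation and equal array spread each left 2 members higher. For estradiol minus vehicle each left 0 lower. Of all genes, 8.48% and 8.3% were then higher, and for estradiol minus vehicle 6.27% and 6.58% lower. In ERα17p minus estradiol both settings gave 3 list genes higher, and equal spread 1 lower. Of all genes, 3.25% and 3.58% were then higher and 4.55% and 4.75% lower, against 1.29% and 2.04% in the main setting. A 2-fold call gave 2 members higher, and 0 lower between the treated arrays. It gave 9 list genes higher and 1 lower, 7 higher for estradiol minus vehicle, and 0 higher between the treated arrays. At 2-fold, 3.34% of all genes were higher and 2.48% lower, with 3.94% higher for estradiol minus vehicle. Between the treated arrays 0.0354% were higher and 0.212% lower. Without probe sets that can match several transcripts, VLDLR and SESN2 had no value, and 1 member was higher and 0 lower, also 0 lower for estradiol minus vehicle. ASNS was then at -0.039. The list counts were 1 lower for estradiol minus vehicle, and 0 higher and 1 lower between the treated arrays. Of all genes left, 9.34% were higher and 8.84% lower in that setting. For estradiol minus vehicle 8.52% were lower, and between the treated arrays 1.81% were higher and 2.44% lower. Fewer probe sets are the construction of that setting. With the reference level as baseline 0 members were higher and 0 lower, with SESN2 at 0.30; for estradiol 1 was higher (CHAC1) and 0 lower, with SESN2 at 0.48. The list counts were 0 and 0, and for estradiol 1 and 0. Of all genes, 0.496% were then higher and 0.632% lower, and for estradiol 1.28% and 0.516%. Without probe sets that have no accession, the member median was 0.39 (main -0.05), and 0.50 for estradiol minus vehicle (main 0.13) with 5 members higher. In that setting 1 list gene was lower between the treated arrays. Of all genes left, 11.7% were then higher for estradiol minus vehicle and 2.12% lower between the treated arrays. The mean of probe sets gave 5 list genes lower for estradiol minus vehicle, where 8.46% of all genes were. Without CHAC1, the farthest member, 0 were lower between the treated arrays. Where no value shows it, the cause was not tested. Of the member values, 118 moved by less than 0.254, 43 by more and 3, named above, changed sign after a call. Many of the 118 could not move, so this tally is no measure of stability. The mean equals the median in members with 1 or 2 probe sets. Leaving out a kind of probe set changes nothing in members that have none of that kind.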
